A study of Mus musculus with 6 samples.

Results

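Wnt4, Hoxa11 and Pou3f3 are regulators of how the nephron is built, and their transcripts were measured in kidney RNA of C57BL/6 mice at postnatal day 21. They are 3 of 9519 genes that could be read in the deposited counts, chosen by name and read by position: a deposited row counted for a gene when at least 90% of the annotated exon bases under its intervals, and at least 25 of them, belonged to that gene in the mouse assembly GRCm38. The row names were not used, because the counted intervals do not lie on the exons of the genes they name. The study compared 3 RNA libraries labelled acute renal failure, titled treat, with 3 labelled healthy, titled control. The labels give no agent, dose or genotype for the treated libraries, the series text calls the healthy mice wild, and all 6 libraries share strain, age and tissue. Whether each library stands for its own animal is not said, so p-values here reflect library-to-library spread, which may be technical. The groups are called ARF-labelled and healthy-labelled.

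Wnt4 is a secreted signalling protein that mesenchymal cells make as they turn into the epithelium of a new nephron, and without it kidney tubules do not form. It binds Frizzled receptors, and in the grown kidney it is known from the collecting duct and the medulla. Hoxa11 is a homeobox transcription factor that acts with its paralogues Hoxc11 and Hoxd11 in the metanephric mesenchyme, upstream of the signals that make the ureteric bud grow. Pou3f3, also called Brn1, is a POU domain transcription factor that the loop of Henle and the distal tubule need to form. In the mouse, nephron formation ends in the days after birth, so kidneys of this age hold no nephron-forming zone.

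Total counts ran from 2873370 to 6191479 per library. Genes of the proximal tubule and the collecting duct were abundant in all 6 libraries. Transcripts of the adrenal cortex, the steroid-making gland that sits on the kidney, were present in some libraries and nearly absent from others, in both groups. The summed level of the 3 adrenal genes that could be read was 113, 0.905 and 2541 CPM, the count scaled to the same total in every library, in ARF-labelled replicates 1, 2 and 3. It was 651, 1814 and 3.03 CPM in healthy-labelled replicates 1, 2 and 3. ARF-labelled replicate 2 and healthy-labelled replicate 3 therefore form the pair with almost no adrenal RNA, and their values are given beside the result of each of the 3 genes. Of the 5246 genes tested over all libraries, 1319 rose and 1305 fell in ARF-labelled kidneys (edgeR's quasi-likelihood test, adjusted p under 0.05). The background against which any gene here is read is thus 25.1% higher and 24.9% lower, 50.0% in all.

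The counted part differed widely between the genes. Wnt4 (ENSMUSG00000036856.4, chromosome 4, 137277489 to 137299726, plus strand, GRCm38) was covered over 3101 of its 4194 exon bases, 73.9%, by 2 deposited rows. These bases include 497 of its 1053 coding bases and most of the 3′ untranslated region in exon 5. Hoxa11 (ENSMUSG00000038210.10, chromosome 6, 52242106 to 52245810, minus strand) was covered over 1239 of 2287 exon bases, 54.2%, by 1 row. All of these lie in exon 2, where 230 of them are coding. Pou3f3 (ENSMUSG00000045515.3, chromosome 1, 42695768 to 42703176, plus strand), a gene of 1 exon, was covered over only 105 of 7409 exon bases, 1.42%, near the end of its 3′ untranslated region.

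**Figure D1:**
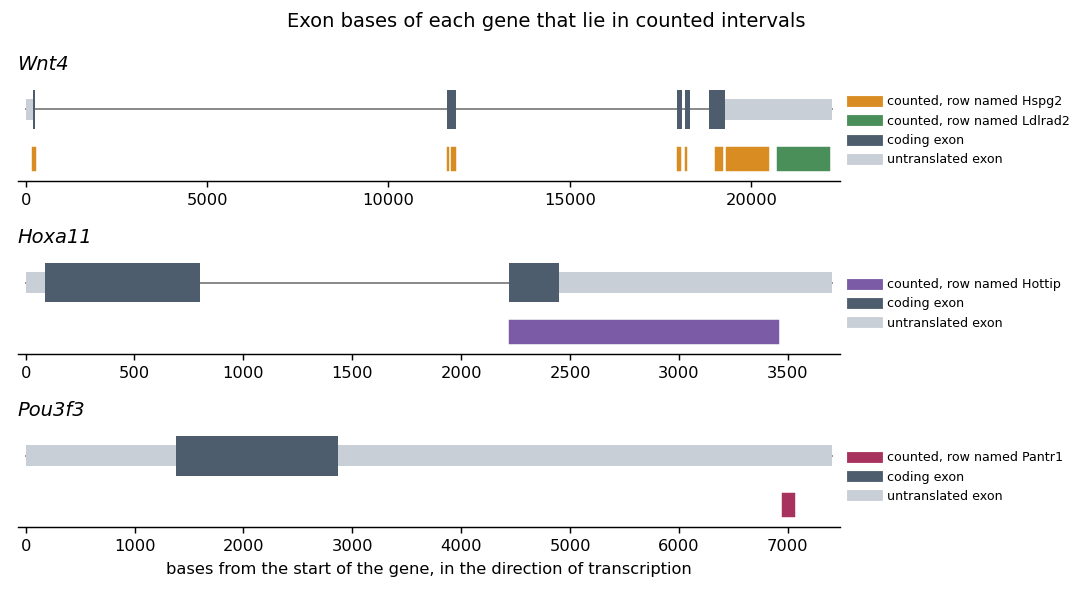
Exons of the 3 genes, with coding exons drawn taller, and below each gene the exon bases that lie in counted intervals, coloured by the deposited row that holds them; the x axis is the distance in bases from the start of the gene in the direction of transcription. Wnt4 is read over 73.9% of its exon bases, Hoxa11 over 54.2%, all in exon 2, and Pou3f3 over 1.42%.

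The coding stretches that were counted show which part of each message the values come from. They are given from the GENCODE M21 transcripts of GRCm38, 5′ to 3′ on the coding strand. For Wnt4 the longest counted coding stretch is chr4:137296482-137296675 in exon 5, near the end of the protein. Its capitals mark the 5 in-frame cysteine codons. Cysteines paired by disulphide bonds hold together the fold of Wnt proteins. For Hoxa11 the counted coding stretch is chr6:52243363-52243592, which holds the homeobox. Its capitals mark the codons of the conserved segment in the third helix of the homeodomain, the helix that reads DNA.
Wnt4 exon 5: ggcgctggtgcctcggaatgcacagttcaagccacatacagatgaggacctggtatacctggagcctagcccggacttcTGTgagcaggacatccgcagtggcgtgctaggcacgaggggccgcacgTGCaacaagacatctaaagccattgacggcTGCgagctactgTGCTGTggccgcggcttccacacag
Hoxa11 exon 2: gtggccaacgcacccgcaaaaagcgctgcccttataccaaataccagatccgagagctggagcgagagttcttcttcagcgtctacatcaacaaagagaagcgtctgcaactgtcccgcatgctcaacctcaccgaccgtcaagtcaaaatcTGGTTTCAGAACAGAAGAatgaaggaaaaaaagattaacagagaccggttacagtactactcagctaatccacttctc
Since homeobox genes resemble each other, the counted exon bases were compared, in the sense direction only, with every transcript of other genes. The longest identical run for Hoxa11 was 24 bases, shared with Hoxb9, and no paralogue of its own group shared a longer one. For Wnt4 it was 95 bases, shared with the long non-coding RNA Mir99ahg and lying in the 3′ untranslated region (137296929 to 137297023). Counted Pou3f3 bases shared no run of 20 bases or more.

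Wnt4 rose in the ARF-labelled libraries. It stood at 234, 202 and 260.2 CPM in ARF-labelled replicates 1, 2 and 3, from 1275, 1118 and 1611 counts. In healthy-labelled replicates 1, 2 and 3 it stood at 105, 50.8 and 85.9 CPM, from 602, 146 and 312 counts. The groups did not overlap: every ARF-labelled library was above every healthy-labelled one, and healthy-labelled replicate 2 was the lowest of all. The means were 232 ± 29.0 CPM in the ARF-labelled and 80.7 ± 27.7 CPM in the healthy-labelled libraries (SD, n = 3 each). The log2 fold change was 1.33 (SE 0.24, edgeR adjusted p = 0.00207), 2.52-fold higher. In the pair of libraries with almost no adrenal RNA, Wnt4 was 2.35-fold higher by CPM in ARF-labelled replicate 2. CPM are scaled to total counts only, and the fit is not. With total count scaling the log2 fold change of Wnt4 over all libraries was 1.51 (edgeR adjusted p = 0.00104). With the adrenal level as a covariate, chosen after the data were seen, its log2 fold change was 1.33 (edgeR adjusted p = 0.00305). The adrenal cortex also expresses Wnt4. In bulk RNA such as this, fewer cells of a type and less RNA per cell cannot be told apart.

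Hoxa11 fell in the ARF-labelled libraries, from low counts. It had 34, 25 and 28 counts in ARF-labelled replicates 1, 2 and 3, which is 6.23, 4.52 and 4.52 CPM. Healthy-labelled replicates 1, 2 and 3 had 51, 38 and 35 counts, or 8.93, 13.2 and 9.64 CPM. Every ARF-labelled library was below every healthy-labelled one, and healthy-labelled replicate 2, the library lowest in Wnt4, was the highest. Mean levels were 5.09 ± 0.986 CPM in the ARF-labelled and 10.6 ± 2.30 CPM in the healthy-labelled libraries (SD, n = 3 each). The log2 fold change was -1.21 (SE 0.27, edgeR adjusted p = 0.00551), a level 2.32-fold lower. By CPM, ARF-labelled replicate 2 was 2.13-fold lower than healthy-labelled replicate 3, the pair with almost no adrenal RNA. With total count scaling, which CPM also use, the log2 fold change over all libraries was -1.04 (edgeR adjusted p = 0.0119). With the adrenal covariate it was -1.20 (edgeR adjusted p = 0.00980).

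Pou3f3, as read by its row, rose in the ARF-labelled libraries over very few counts. It had 17, 21 and 33 counts in ARF-labelled replicates 1, 2 and 3, or 3.12, 3.80 and 5.33 CPM. In healthy-labelled replicates 1, 2 and 3 it had 2, 5 and 0 counts, or 0.350, 1.74 and 0 CPM. All ARF-labelled libraries were above all healthy-labelled ones, among which replicate 2 held most of the counts. The sums of 71 counts in the ARF-labelled and 7 in the healthy-labelled libraries give a ratio of 7.21 between groups after scaling to total counts, with an exact 95% interval of 3.33 to 18.6 that covers counting error only. The log2 fold change was 2.57 (SE 0.71, edgeR adjusted p = 0.0161). It was 2.69 with the adrenal covariate (edgeR adjusted p = 0.0149). Each healthy-labelled library moved this value: the log2 fold change was 2.17 without replicate 1 and no longer passed (edgeR adjusted p = 0.0678), 3.94 without replicate 2 (edgeR adjusted p = 0.00395) and 2.01 without replicate 3 (edgeR adjusted p = 0.0460). In the pair with almost no adrenal RNA, it had 21 counts in ARF-labelled replicate 2 and 0 in healthy-labelled replicate 3.

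**Figure D2:**
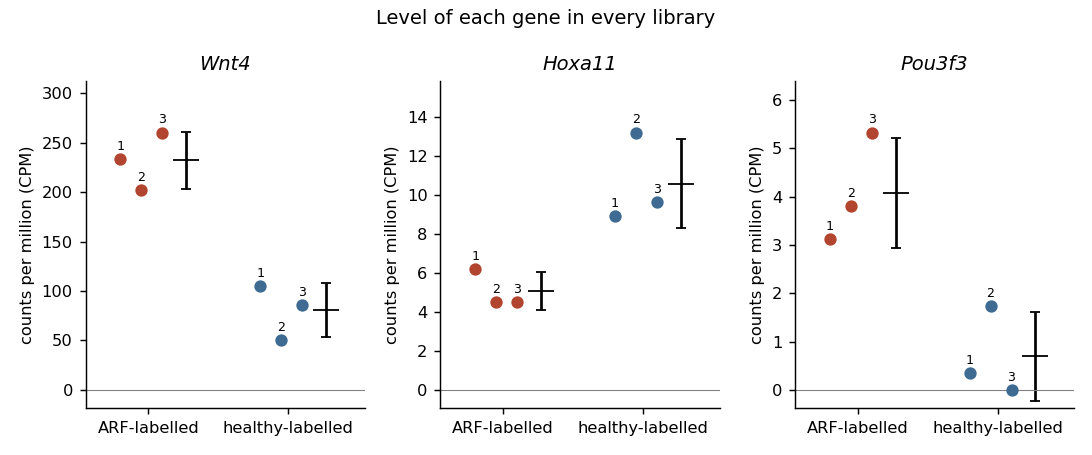
CPM of Wnt4, Hoxa11 and Pou3f3 in each library, with ARF-labelled libraries left of healthy-labelled ones; points are single libraries with their replicate number, and the black mark and bar are the mean and SD over 3 libraries. The groups do not overlap for any of the 3 genes: Wnt4 and Pou3f3 are higher and Hoxa11 lower in the ARF-labelled libraries.

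All 3 genes passed the threshold and none had overlapping groups, in a comparison in which 50.0% of genes passed and 62.4% of genes did not overlap, 40.0% with the ARF-labelled libraries above and 22.4% with them below. Levels between genes can be set side by side only per length. Per kilobase of counted exon, Wnt4 averaged 74.8 ± 9.34 CPM in the ARF-labelled and 26.0 ± 8.93 CPM in the healthy-labelled libraries. On the same scale Hoxa11 averaged 4.11 ± 0.796 CPM in the ARF-labelled and 8.55 ± 1.86 CPM in the healthy-labelled libraries. Pou3f3 averaged 38.9 ± 10.8 CPM per kilobase in the ARF-labelled and 6.64 ± 8.77 CPM per kilobase in the healthy-labelled libraries (SD, n = 3 each throughout). On this scale Wnt4 was above Pou3f3 and Pou3f3 above Hoxa11 in the ARF-labelled libraries without overlap, and in the healthy-labelled libraries the values of Pou3f3 overlapped those of both other genes. The order of Pou3f3 and Hoxa11 depends on the length used. Per kilobase of the whole deposited rows, Wnt4 averaged 13.5 ± 1.68 CPM in the ARF-labelled and 4.68 ± 1.60 CPM in the healthy-labelled libraries. Hoxa11 then averaged 1.77 ± 0.343 CPM in the ARF-labelled and 3.68 ± 0.799 CPM in the healthy-labelled libraries, and overlapped Wnt4 in the healthy-labelled libraries only. Pou3f3 averaged 0.916 ± 0.254 CPM in the ARF-labelled and 0.156 ± 0.206 CPM in the healthy-labelled libraries, below Hoxa11 in every library.

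What else the rows cover limits what the values can show. The row that gives Pou3f3 spans 4458 bases, of which 4353 lie outside the gene and over no annotated exon. Spread over its whole length, with the libraries of a group pooled, it held 0.927 CPM per kilobase in the ARF-labelled and 0.129 CPM per kilobase in the healthy-labelled libraries. The 37586 rows that touch no exon, pooled likewise, held on average 0.219 CPM per kilobase in the ARF-labelled and 0.275 CPM per kilobase in the healthy-labelled libraries. The pooled row stood above that level in the ARF-labelled group only. Among single healthy-labelled libraries, replicate 2 was above it at 0.390 CPM per kilobase, and replicates 1 and 3 were below it at 0.0786 and 0. How many of its reads lie in the 105 bases of Pou3f3 was not tested. The Hoxa11 row also covers 996 bases of the Hoxa11 intron. It covers 126 exon bases of its neighbours Hoxa10, the antisense RNA Hoxa11os or both, so that 90.8% of the exon bases that the rule counts were those of Hoxa11. The fuller GENCODE set, which the rule did not use, puts 322 bases of the row in exons of these neighbours. Counting ignored strand, so reads of Hoxa11os cannot be told from those of Hoxa11 where they overlap. For Wnt4, 1 row covers 3795 bases of its introns and 9280 bases outside the gene, none in an exon of another gene, and the other covers 1071 bases outside the gene.

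The 2 rows of Wnt4 gave separate readings of the same gene. The row over parts of all 5 exons and the near 3′ untranslated region had 142, 119 and 148 CPM in ARF-labelled replicates 1, 2 and 3, and 74.8, 35.5 and 58.9 CPM in healthy-labelled replicates 1, 2 and 3. Its log2 fold change was 1.09 (SE 0.23, edgeR adjusted p = 0.00445 over all deposited rows). The row over the far 3′ untranslated region had 91.5, 83.1 and 112 CPM in the ARF-labelled replicates, and 30.6, 15.3 and 27.0 CPM in the healthy-labelled replicates. There the log2 fold change was 1.78 (SE 0.23, edgeR adjusted p = 0.000293), and of all deposited rows tested 23.6% were higher and 22.6% lower. Both rows separated the groups, and the far row did so by more. Its share of all Wnt4 counts was 39.1%, 41.1% and 43.1% in the ARF-labelled replicates and 29.1%, 30.1% and 31.4% in the healthy-labelled replicates. The means were 41.1% ± 2.0 in the ARF-labelled and 30.2% ± 1.17 in the healthy-labelled libraries (SD, n = 3 each; two-sided exact permutation p = 0.1, the smallest that 3 against 3 libraries allow). Among 1032 genes with at least 2 such rows and at least 100 counts on either side, the ARF-labelled libraries were all above the healthy-labelled ones in the share of the row nearest the 3′ end in 13.1%. The median difference in that share was 0.06 percentage points, against 10.9 for Wnt4, and 16 genes rose by more. The part that intron reads in the other row have in this was not tested.

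**Figure D3:**
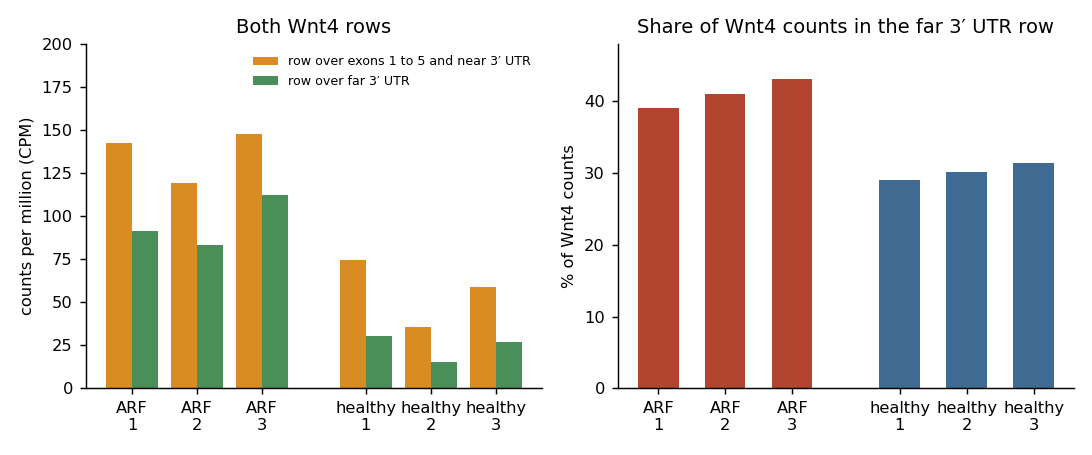
Left, CPM of the 2 deposited rows that lie on Wnt4 in each library, in orange for the row over parts of exons 1 to 5 and the near 3′ untranslated region and in green for the row over the far 3′ untranslated region. Right, the share of all Wnt4 counts in the far row, which is 39.1% to 43.1% in the ARF-labelled and 29.1% to 31.4% in the healthy-labelled libraries.

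Genome neighbours were read for each gene within 100 kb. Cdc42, a small GTPase of cell polarity, is the only gene read near Wnt4, and its log2 fold change was -0.25 (SE 0.13, edgeR adjusted p = 0.156). Around Hoxa11, 7 of 21 annotated neighbours could be read and 4 were tested. The adjacent homeobox genes Hoxa9 and Hoxa10 fell along with it. Hoxa9 had 219, 108 and 163 counts in ARF-labelled replicates 1, 2 and 3, and 284, 146 and 214 counts in healthy-labelled replicates 1, 2 and 3. Hoxa9 had a log2 fold change of -1.07 (SE 0.23, edgeR adjusted p = 0.00561), and Hoxa10 one of -0.86 (SE 0.27, edgeR adjusted p = 0.0284). The call of Hoxa10 was lost in 5 alternative fits. Hoxa4, farther along the cluster, gave no call, with a log2 fold change of 0.08 (edgeR adjusted p = 0.936). Beside Pou3f3, the overlapping transcript AC122898.1 had 8, 8 and 11 counts in the ARF-labelled and 3, 2 and 4 counts in the healthy-labelled replicates, too few to be tested. The non-coding gene Dalir had 3, 4 and 2 counts in the ARF-labelled and 1, 0 and 0 in the healthy-labelled replicates.

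Among Wnt ligands, 8 of 19 could be read and 3 had enough counts to test. Wnt4 and Wnt6 rose and Wnt2b did not pass. Medians given for the lists below stand against a median log2 fold change of 0.01 over all genes tested. Wnt6, known from the ureteric bud, had 25, 15 and 15 counts in the ARF-labelled and 4, 2 and 1 counts in the healthy-labelled replicates (log2 fold change 2.28, SE 0.52, edgeR adjusted p = 0.00660). Wnt2b had a log2 fold change of 0.07 (SE 0.33, edgeR adjusted p = 0.883), and its sign turned without single libraries. The ligands Wnt1, Wnt2, Wnt8a, Wnt10b and Wnt16 had at most 14 counts in any library. Wnt9b, the ligand that switches Wnt4 on in the forming nephron, and Wnt11 and Wnt7b of the ureteric bud could not be read.

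Genes that receive and relay Wnt signals were divided. Of 18 receptor and co-receptor genes 6 were tested, and 2 rose and 0 fell (median log2 fold change 0.29). With total count scaling 4 rose, and 1 rose in 7 other alternatives, among them the DESeq2 Wald test. Fzd4, a Frizzled receptor, averaged 206 ± 20.4 CPM in the ARF-labelled and 110.0 ± 7.20 CPM in the healthy-labelled libraries (log2 fold change 0.73, SE 0.12, edgeR adjusted p = 0.00115). Lgr4, a receptor for R-spondins, had a log2 fold change of 0.40 (SE 0.15, edgeR adjusted p = 0.0458), and its call was lost in 8 alternative fits. Of 4 secreted or membrane regulators tested, none passed: log2 fold changes were 0.41 for Sfrp1, 0.31 for Dkk3, -0.05 for Kremen1 and -0.52 for the Wnt deacylase Notum, with edgeR adjusted p of 0.161 or higher. At an unadjusted p under 0.05 the count was 0 as well, and the DESeq2 Wald test called 1 of them lower. Among 13 intracellular components tested, 1 rose and 2 fell (median -0.20), and with total count scaling 3 rose and 2 fell. Bcl9l, a co-activator that binds β-catenin, rose (log2 fold change 0.90, SE 0.16, edgeR adjusted p = 0.00233). Daam1, a formin of the planar polarity branch, fell by 0.62 on the log2 scale (SE 0.13, edgeR adjusted p = 0.00494), and the co-repressor Tle3 fell by 0.54 (SE 0.13, edgeR adjusted p = 0.00733). Of 3 Wnt target genes tested, Bambi, a decoy receptor for transforming growth factor β, fell by 1.59 (SE 0.15, edgeR adjusted p = 8.16e-05). Tnfrsf19 had a log2 fold change of 1.38 (SE 0.60, edgeR adjusted p = 0.0876) and Notum is given above. A rise in 1 target gene was called when replicate 2 of either group was left out, and with the adrenal covariate. Axin2, the usual readout of β-catenin signalling, could not be read.

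More Hox genes fell than rose. Of 39 Hox genes 10 could be read and 8 were tested, of which 4 fell, Hoxa11 included, and 1 rose (median log2 fold change -0.88). Hoxc10, a paralogue of Hoxa10, had 36, 44 and 53 counts in the ARF-labelled and 92, 79 and 95 counts in the healthy-labelled replicates (log2 fold change -1.74, SE 0.24, edgeR adjusted p = 0.000568). The gene that rose was Hoxb8, with 431, 454 and 589 counts in the ARF-labelled and 150, 95 and 57 counts in the healthy-labelled replicates (log2 fold change 1.61, SE 0.23, edgeR adjusted p = 0.000631). Hoxb13 had 0 counts in all libraries. The paralogues Hoxc11 and Hoxd11, which share the role of Hoxa11 in the metanephros, could not be read. Meis1, a partner that binds DNA together with Hox proteins, had a log2 fold change of -0.08 (SE 0.44, edgeR adjusted p = 0.895).

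POU family genes other than Pou3f3 gave no call. Pou6f1 had a log2 fold change of 0.22 (SE 0.15, edgeR adjusted p = 0.260) and Pou2f1 one of -0.07 (SE 0.17, edgeR adjusted p = 0.773). Pou3f2, the closest relative that could be read, had 1 count over all libraries. Among genes of the loop of Henle, where Pou3f3 acts, 9 were tested and 3 rose and 1 fell, Pou3f3 included (median 0.03), and 2 rose and 0 fell without healthy-labelled replicate 1. Kcnj1, the potassium channel of the thick ascending limb and the collecting duct, was read over 67 exon bases and rose by the most (log2 fold change 3.75, SE 0.22, edgeR adjusted p = 1.03e-05). Slc14a2, a urea transporter of the inner medulla, averaged 77.1 ± 7.30 CPM in the ARF-labelled and 24.5 ± 2.01 CPM in the healthy-labelled libraries (log2 fold change 1.47, SE 0.13, edgeR adjusted p = 6.66e-05). Ptger3, a prostaglandin receptor, fell by 0.61 (SE 0.20, edgeR adjusted p = 0.0294), a call lost in 7 alternative fits. Umod and Slc12a1, which define the thick ascending limb, could not be read.

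Genes of nephron formation that share the embryonic setting of Wnt4 and Hoxa11 did not follow a single direction. Of 20 nephron progenitor genes 5 were tested, and 3 fell and 0 rose: Hoxa11, Crym (log2 fold change -1.47, SE 0.33, edgeR adjusted p = 0.00668) and the integrin Itga8 (-1.49, SE 0.40, edgeR adjusted p = 0.0151). Crym and Itga8 were read over 49 and 73 exon bases, so that 1 gene fell where at least 100 were required, and the call of Itga8 was lost in 2 alternative fits. Six2 and Cited1, the defining progenitor genes, could not be read. Of 6 genes tested from the induction of the nephron, 2 rose and 2 fell. Beside Wnt4, the growth factor Fgf9 rose (0.62, SE 0.13, edgeR adjusted p = 0.00393). Osr2, a zinc finger factor, had 44, 31 and 63 counts in the ARF-labelled and 233, 156 and 242 counts in the healthy-labelled replicates (log2 fold change -2.92, SE 0.25, edgeR adjusted p = 4.97e-05). The receptor Notch1 fell by 1.50 (SE 0.19, edgeR adjusted p = 0.000327). Fgf8, which acts with Wnt4 in the renal vesicle, had 0 counts in all libraries.

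In 5 tested genes of the ureteric bud, from which the collecting duct grows, 2 rose and 2 fell, and without healthy-labelled replicate 2 or 3 the counts were 1 and 1. Calb1, a calcium-binding protein, rose (log2 fold change 1.98, SE 0.35, edgeR adjusted p = 0.00194) and so did the epithelial factor Grhl2 (0.45, SE 0.12, edgeR adjusted p = 0.0144). Etv4, a target of the receptor Ret, fell by 1.70 (SE 0.19, edgeR adjusted p = 0.000202), and its relative Etv5 fell by 0.93 (SE 0.31, edgeR adjusted p = 0.0341) with a call lost in 6 alternative fits. Grhl2 lost its call in 2 fits. Transcription factors of tubule segments went 1 way where they were called, with 5 of 8 higher, Pou3f3 included, and 0 lower (median 0.88). Ehf averaged 382 ± 59.0 CPM in the ARF-labelled and 80.5 ± 9.07 CPM in the healthy-labelled libraries (log2 fold change 2.08, SE 0.15, edgeR adjusted p = 2.63e-05). Tfap2b, a factor of the distal nephron, had a log2 fold change of 1.78 (SE 0.16, edgeR adjusted p = 6.63e-05), and Mecom one of 1.30 (SE 0.19, edgeR adjusted p = 0.000660). All of these counts stand against 25.1% higher and 24.9% lower among all genes tested.

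**Figure D4:**
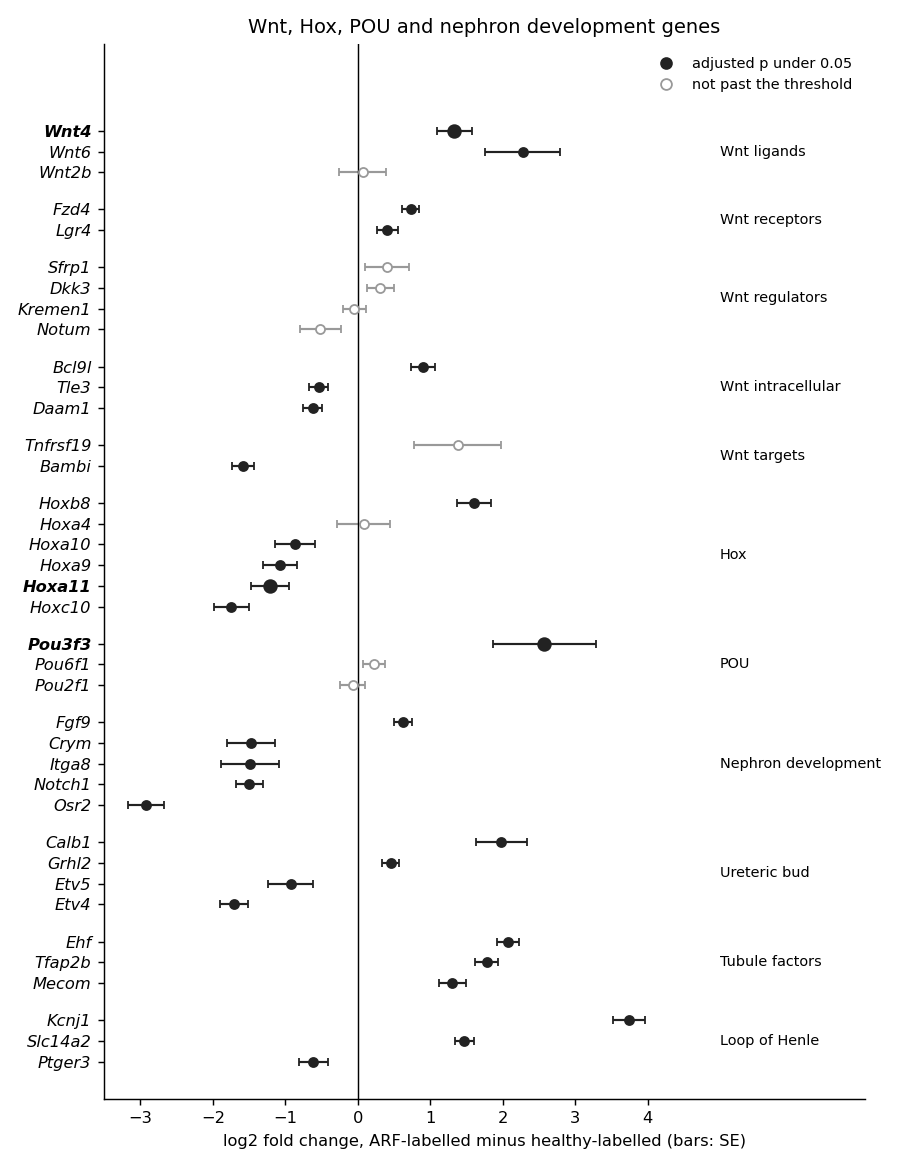
Log2 fold change (ARF-labelled minus healthy-labelled) with its SE for named genes of each list, filled where the edgeR adjusted p was under 0.05 and open where it was not, with Wnt4, Hoxa11 and Pou3f3 in bold. Wnt4 (1.33) and Pou3f3 (2.57) lie right of 0 and Hoxa11 (-1.21) left of it, and the other Hox genes lie on both sides.

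Markers of cell types moved in both directions, and their counts stand against 25.1% higher and 24.9% lower among all genes tested. All 5 tested genes of principal cells, which reabsorb water and sodium in the collecting duct, rose, with summed levels of 9547 to 11361 CPM in the ARF-labelled and 3356 to 4074 CPM in the healthy-labelled libraries, and none was at 0. All 7 intercalated cell genes tested rose as well. Proximal tubule genes stood at 6671 to 7235 CPM in the ARF-labelled and 14295 to 21520 CPM in the healthy-labelled libraries, with 6 of 7 lower. Of 3 distal convoluted tubule genes tested, 1 rose and 2 fell (median -1.58). Their summed level was nonetheless higher, at 3452 to 6105 CPM in the ARF-labelled and 827 to 1956 CPM in the healthy-labelled libraries. Most of that sum was Calb1, given above with the ureteric bud. It stood at 3341 to 6045 CPM in the ARF-labelled and 652 to 1553 CPM in the healthy-labelled libraries. The part of these cell types in the rise of Wnt4 and Pou3f3 was not tested. Of the medullary interstitium list, which contains Wnt4, the other gene tested was the proteoglycan gene Bgn, and it fell by 1.15 (SE 0.38, edgeR adjusted p = 0.0330). Stromal and pericyte genes summed to 316 to 544 CPM in the ARF-labelled and 245 to 1655 CPM in the healthy-labelled libraries, with 2 higher and 1 lower of 9 tested. Endothelial genes were at 145 to 164 CPM in the ARF-labelled and 179 to 346 CPM in the healthy-labelled libraries, with 3 of 5 lower. Immune genes were at 39.2 to 47.5 CPM in the ARF-labelled and 102 to 251 CPM in the healthy-labelled libraries, with 7 of 8 lower. Healthy-labelled replicate 2, highest in Hoxa11, was also the library highest in summed stromal genes, at 1655 CPM. The collagen genes Col1a1 and Col1a2 made up most of that sum, at 848 and 603 CPM. In healthy-labelled replicate 1 they stood at 44.3 and 111 CPM. Healthy-labelled replicate 1 was the library lowest in stromal genes, at 245 CPM, and its Hoxa11 level of 8.93 CPM was above every ARF-labelled library. The part of stromal cells in the fall of Hoxa11 was not tested.

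Genes with the most similar pattern were found by Pearson's r of log2(CPM + 1) over the 6 libraries, a measure that the difference between the groups dominates. For Wnt4 they were Fkbp9 (r = 0.996), Ubxn7 and Gm43480 (both r = 0.994). For Hoxa11 they were Arhgap21 (r = 0.997), Inf2 (r = 0.995) and Rasal2 (r = 0.994). For Pou3f3 they were Telo2 (r = 0.999), Ocrl (r = 0.992) and Gm34093 (r = 0.991). With 227, 122 and 139 of 5245 genes above an r of 0.95 for Wnt4, Hoxa11 and Pou3f3, such likeness is common over so few libraries.

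The calls of Wnt4 and Hoxa11 held in every alternative that gave a value. Their log2 fold changes ran from 1.07 to 1.58 for Wnt4 and from -1.36 to -1.04 for Hoxa11. With all overlapped exon bases required to lie in 1 gene, Hoxa11 had no value, because its row also covers exon bases of Hoxa10, Hoxa11os or both. Pou3f3 kept its direction throughout, from 2.01 to 3.94, and lost its call in 1 alternative, without healthy-labelled replicate 1.

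**Figure D5:**
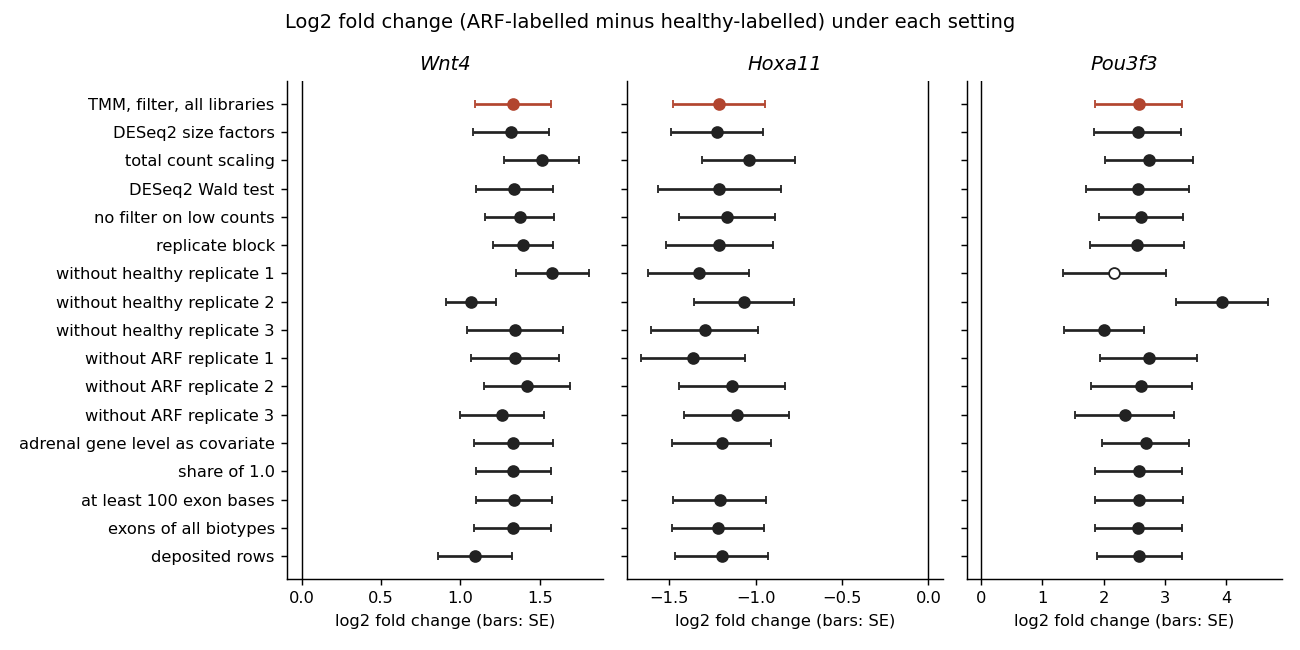
Log2 fold change (ARF-labelled minus healthy-labelled) of each gene with its SE under every setting, the reported fit in red and open points where the adjusted p was 0.05 or above; "deposited rows" stands for the row with the most counts of each gene. Wnt4 and Pou3f3 stay right of 0 and Hoxa11 stays left of it, and Pou3f3 has the only open point, without healthy-labelled replicate 1.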

How the data were processed

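Each library was prepared from 1 ug of total kidney RNA with an Illumina kit, per the labels' protocols. The deposited counts are fragments per annotated row, made by the authors with featureCounts 2.0.1 from paired reads over exons grouped by gene name, with strand ignored, per the file headers. Bowtie 0.12.2 and mm9 are named, per the submitters' processing notes, but no source used here says which aligner made the counted alignments. The assembly of the intervals and of the reads is not stated. Read on GRCm38, 37586 of 53546 deposited rows touched no exon and held 1.37% of counts in the ARF-labelled and 1.72% in the healthy-labelled libraries, so that nearly all counts lay in rows on exons of that assembly. Rows were therefore assigned by position to GENCODE M21 genes (GRCm38, protein-coding and long non-coding, basic set). A row counted for a gene that held at least 0.9 of its exon bases, and at least 25. This gave 12401 rows and 9519 genes, with 63.0% of counts. Exon bases outside every counted interval give no counts, so levels are of the counted stretches only.

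CPM are relative to each library's total over all rows. Genes with enough counts (edgeR's filterByExpr) were tested with edgeR 4.0.16 in R 4.3.3 (TMM scaling, quasi-likelihood test, Benjamini-Hochberg adjustment over 5246 genes, threshold 0.05). DESeq2 1.42.0, other scalings, assignments and filters, a replicate block and leaving out each library were alternatives, and the fit was tested on simulated data. The simulation changed a far smaller part of the genes than the 50.0% that passed here. It therefore does not show how the fit behaves when so many genes differ. Intervals on ratios of counts are exact and cover counting error only. The members and lists were chosen with earlier results of these data known. Named genes are the 3 members, every tested gene of a Wnt, Hox, POU, nephron, tubule factor or loop of Henle list with at most 4 tested, otherwise its 4 called genes with the smallest adjusted p, the readable relatives of the members, readable neighbours within 100 kb, and the 3 genes most alike in pattern. Marker genes named beside them were chosen after their values were seen. Some genes that this rule names are not reported here.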

Additional observations from a re-analysis of the deposited data

How the results depend on the processing

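Leaving out 1 library at a time moved the log2 fold change of Wnt4 between 1.07 and 1.58, of Hoxa11 between -1.36 and -1.07 and of Pou3f3 between 2.01 and 3.94. The number of genes called ran from 2117 to 2495 in the same fits. The call of Pou3f3 was lost in 1 of these fits, the one without healthy-labelled replicate 1 (2.17). Fitted on deposited rows in place of genes, 5045 rows were called, out of more features tested. Total count scaling moved the median of all genes to 0.19, from 0.01 with TMM, and gave 1749 genes higher and 1013 lower (63.3% higher, against 50.3% with TMM).

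Signs turned only for genes that were not called. With total count scaling Kremen1 had 0.128, Meis1 0.0938 and Pou2f1 0.105, and with the adrenal covariate Meis1 had 0.0295. With 1 library left out, the values ran from -0.155 to 0.350 for Hoxa4, from -0.133 to 0.0144 for Kremen1, from -0.397 to 0.224 for Meis1, from -0.176 to 0.0201 for Pou2f1 and from -0.100 to 0.307 for Wnt2b. The cause was not tested. Of all pairs of a named gene and an alternative, 517 kept direction and side of the threshold, 30 lost and 4 gained a call, and of pairs of a list and an alternative 175 kept their counts and 20 did not.

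With the replicate number as a block, the log2 fold change was 1.39 for Wnt4, -1.21 for Hoxa11 and 2.54 for Pou3f3 (edgeR adjusted p = 0.00117, 0.0177 and 0.0324), and 2288 genes were called. The numbers gave no sign of pairing: deviations of same-numbered libraries correlated at -0.07, -0.22 and -0.29, and no library correlated best with its own number. With 3 libraries per group, these correlations cannot decide whether same-numbered libraries shared a batch. Depth limits Pou3f3 and Hoxa11 most, with at most 33 and 51 counts in a library. No value could be had for Hoxa11 with a share of 1.0, for Crym, Itga8, Kcnj1 and Lgr4 with at least 100 exon bases, or for Wnt2b with exons of all biotypes.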

Other observations

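The deposited rows that carry the names of the 3 genes lie on none of their exon bases. The row named Hoxa11 had 17, 12 and 20 counts in ARF-labelled replicates 1, 2 and 3, and 7, 7 and 4 counts in healthy-labelled replicates 1, 2 and 3. The row named Wnt4 had 6, 7 and 9 counts in the ARF-labelled and 2, 2 and 2 counts in the healthy-labelled replicates. The row named Pou3f3, which lies on AC122898.1, had 8, 8 and 11 counts in the ARF-labelled and 3, 2 and 4 counts in the healthy-labelled replicates. By name, Hoxa11 would thus have had more counts in every ARF-labelled library, whereas by position it had fewer. These counts are not scaled to library totals. The row named Hoxa11 had 12 of 5525366 counts in ARF-labelled replicate 2 and 7 of 2873370 in healthy-labelled replicate 2. As a share of the total it was lower in that ARF-labelled library, so the groups overlapped once scaled. No test result is given here for these rows.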
